A study of Prunus persica with 18 samples.

Results

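PpTPS9 (PRUPE_5G176400) and PpTPS10 (PRUPE_1G256200) are peach genes annotated as trehalose phosphate synthases (TPS), and they were followed here in buds around the time of floral transition. They were taken from the count table by the identifiers that go with these names, as 2 of the 26873 genes listed. Both passed the filter on low counts in every comparison. The RNA-Seq libraries were made from axillary buds of the genotype Platinet 1, a flat nectarine, on shoots that had received no treatment, and each biological replicate pooled the buds of several shoots. There were 6 groups of 3 replicates, 18 libraries in all: apical buds sampled at T1, T3 and T5, which were 45, 58 and 79 DAFB (days after full bloom), and basal buds cut from the same shoots at these 3 times. All libraries share the cultivar, and buds are mixtures of meristem, leaf primordia and scales, so that more cells of a type and more RNA per cell cannot be told apart in any result below.

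Trehalose phosphate synthases make trehalose-6-phosphate from UDP-glucose and glucose-6-phosphate, and a phosphatase then removes the phosphate to give trehalose. In plants trehalose-6-phosphate is present in small amounts and acts as a signal of sucrose supply, and in Arabidopsis it inhibits SnRK1, a kinase that is active when sugar is short. TPS1, a synthase proven to be active in Arabidopsis, is needed there for flowering. Arabidopsis TPS9 and TPS10 instead belong to the class II proteins, which join a synthase-like to a phosphatase-like part and for most of which no synthase activity has been shown. The peach names rest on the match to these Arabidopsis proteins, and neither protein was measured here.

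The total counts per library ranged from 21114469 (apical T3, replicate 2) to 47286272, with a median of 32404377.5. The raw counts were 609 to 8783 for PpTPS9 and 2154 to 24105 for PpTPS10, so that no library was near the limit of detection. Replicate 1 of the apical T3 group stood apart from the other libraries. The chi-square statistic per gene of its raw counts was 133 against replicate 2 and 139 against replicate 3 of the group, and 4.53 to 50.6 between all other pairs of replicates. The next highest values were those of replicate 1 of apical T5, with 50.6 against replicate 2 and 31.2 against replicate 3 of its group. The main tests of PpTPS9 and PpTPS10 that use replicate 1 of apical T3 are therefore given with and without it. Tests of the reference genes and tests under other scalings are given only with it. All 8 flowering, meristem and cell cycle genes of buds that were looked up had counts in 18 of 18 libraries, with the fewest for PpAP1, a floral identity gene with 6 to 37 raw counts.

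PpTPS9 was low at T1 and T3 and several times higher at T5 in both kinds of bud. In apical buds its normalized counts, scaled by edgeR's TMM method to the mean library size, were 830.4, 1033 and 986 at T1. They were 859.6, 992 and 1127 at T3, and reached 5956, 8379 and 6734 at T5. In basal buds the 3 T1 libraries had 1097, 1204 and 1279, the T3 libraries 1457, 1665 and 1573, and the T5 libraries 5532, 5963 and 6934. The lowest T5 library of either position thus lay far above the highest T1 or T3 library. The order of the group means was apical T1 (949.8 ± 106), apical T3 (993 ± 133), basal T1 (1193 ± 91.6), basal T3 (1565 ± 104), basal T5 (6143 ± 718) and apical T5 (7023 ± 1237; SD, n = 3 each). In this order, the ranges of apical T1 and apical T3, of apical T3 and basal T1, and of basal T5 and apical T5 overlapped. Those of basal T1 and basal T3, and of basal T3 and basal T5, did not.

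PpTPS10 had the same late rise, and its libraries scattered more at T3. In apical buds the T1 libraries had 3052, 3677 and 3398 normalized counts, the T3 libraries 1869, 3509 and 3856, and the T5 libraries 15218, 21064 and 17776. In basal buds the T1 libraries had 4139, 5085 and 5109, the T3 libraries 5146, 5194 and 4163.5, and the T5 libraries 17689, 19244 and 21959. The low value of 1869 belonged to replicate 1 of apical T3, the library that stood apart, and that group had a coefficient of variation of 34.5% against 9.28% in apical T1. The order of the group means was apical T3 (3078 ± 1061), apical T1 (3376 ± 313), basal T1 (4778 ± 553), basal T3 (4835 ± 582), apical T5 (18019 ± 2931) and basal T5 (19630.5 ± 2161; SD, n = 3 each). Neighbours in this order overlapped in their ranges except apical T1 and basal T1, and basal T3 and apical T5. Levels of the 2 genes cannot be set against each other from these counts, since they are not per length of transcript.

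**Figure D1:**
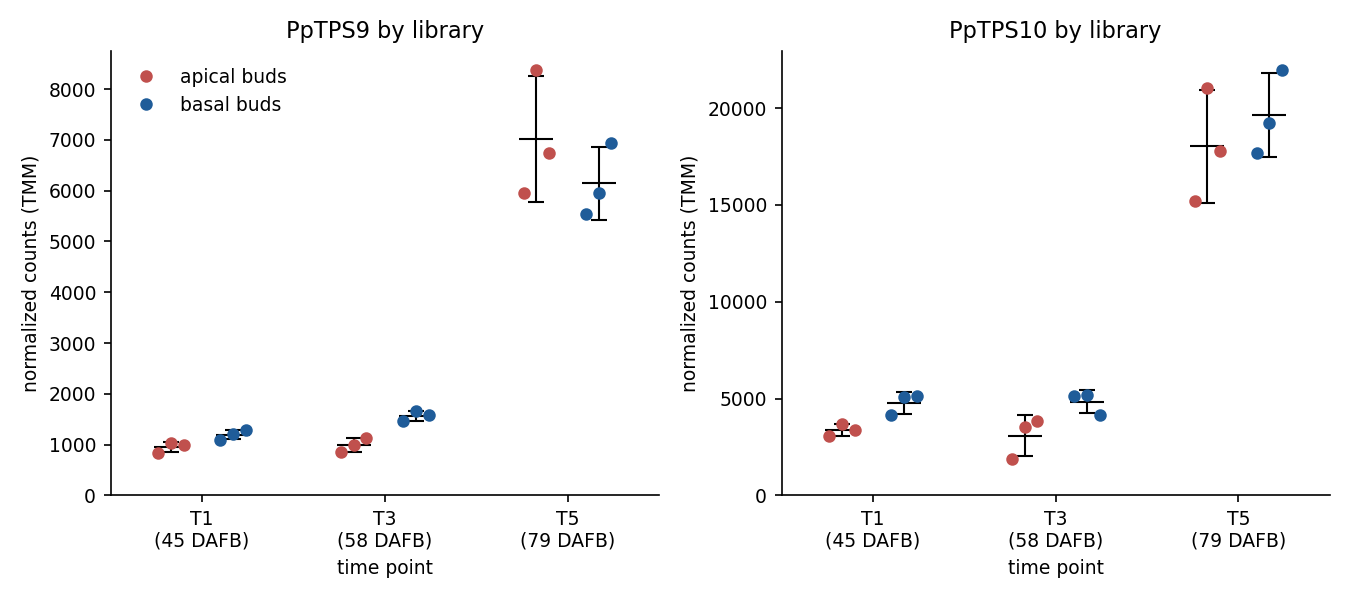
Normalized counts of PpTPS9 (left) and PpTPS10 (right) at T1, T3 and T5, with 1 point per library, apical buds left of basal buds, and lines for the mean ± SD of 3 replicates. All T5 libraries lie above all T1 and T3 libraries in both genes, and the low apical point of PpTPS10 at T3 is replicate 1, with 1869 normalized counts.

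Both genes rose strongly between 58 and 79 DAFB. In apical buds, PpTPS9 was 7.03-fold higher at T5 than at T3, or 2.81 on the log2 scale, with a standard error of 0.17 (quasi-likelihood F-test of edgeR, Benjamini-Hochberg adjusted over 19636 genes, adjusted p = 2.71e-06). PpTPS10 was 5.82-fold higher there, or 2.54 on the log2 scale, with a standard error of 0.25 (edgeR, adjusted p = 3.47e-05). Both thus passed an adjusted p of 0.01 and a 2-fold change, the limits that the study set for a differentially expressed gene, as did 8.67% of all genes tested in that direction. Only 1.08% of the tested genes had a larger rise than PpTPS9 and 1.43% a larger rise than PpTPS10. The T5 values lay above all T3 values in both genes, which was true of 28.7% of the genes tested.

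In basal buds the rise between T3 and T5 was 3.93-fold for PpTPS9 (log2 fold change 1.97, standard error 0.090, edgeR over 19304 genes, adjusted p = 1.65e-08). For PpTPS10 it was 4.07-fold (log2 fold change 2.03, standard error 0.12, adjusted p = 6.18e-08). The same limits were passed in that direction by 8.55% of the genes tested, with 2.67% of the genes rising more than PpTPS9 and 2.52% more than PpTPS10. For both genes the T5 libraries lay above all T3 libraries, as for 34.1% of the genes. The step from T3 to T5 was therefore among the larger ones of the transcriptome in both kinds of bud.

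Over the whole span, from 45 to 79 DAFB, PpTPS9 was 7.42-fold higher at T5 in apical buds (log2 fold change 2.89, standard error 0.17, edgeR adjusted p = 1.57e-06) and 5.15-fold higher in basal buds (2.36, standard error 0.092, adjusted p = 4.69e-09). PpTPS10 was 5.36-fold higher in apical buds (2.42, standard error 0.25, adjusted p = 3.6e-05) and 4.11-fold higher in basal buds (2.04, standard error 0.12, adjusted p = 5.03e-08). The background in this direction was 9.51% of the genes in apical and 9.48% in basal buds. The rises of both genes to T5 stayed past these limits without replicate 1 of apical T3. In apical buds the rise from T3 to T5 was then 6.58-fold for PpTPS9 and 4.87-fold for PpTPS10. The comparisons of T5 with T3 and with T1 share the T5 libraries and are not independent of each other.

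Between 45 and 58 DAFB neither gene passed the test in either position. In apical buds, the log2 fold change of T3 against T1 was 0.080 for PpTPS9 (95% interval -0.27 to 0.43, adjusted p = 0.765 from edgeR) and -0.12 for PpTPS10 (95% interval -0.65 to 0.41, adjusted p = 0.766). Only 0.0560% of the genes passed an adjusted p of 0.01 in either direction in that comparison, so that missing the threshold sets neither gene apart. Without replicate 1 of apical T3, the log2 fold change was 0.17 (edgeR adjusted p = 0.589) for PpTPS9 and 0.14 (adjusted p = 0.639) for PpTPS10.

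In basal buds, PpTPS9 came closer to the threshold. It had 0.39 at T3 against T1 on the log2 scale (standard error 0.090, edgeR adjusted p = 0.0140), a 1.31-fold higher level that missed the threshold of 0.01. Its 3 T3 libraries lay above its 3 T1 libraries, which was also the case for 19.9% of the genes tested. In that direction 3.75% of the genes passed the threshold, and 9.14% had a larger rise than PpTPS9. The call changed with the libraries in the fit, since the adjusted p was 0.00851 without basal T5 replicate 1 and 0.00440 without basal T5 replicate 3, and with the tool, since DESeq2 gave 0.00193. For PpTPS10 the log2 fold change was 0.015 (95% interval -0.23 to 0.26, adjusted p = 0.944).

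**Figure D2:**
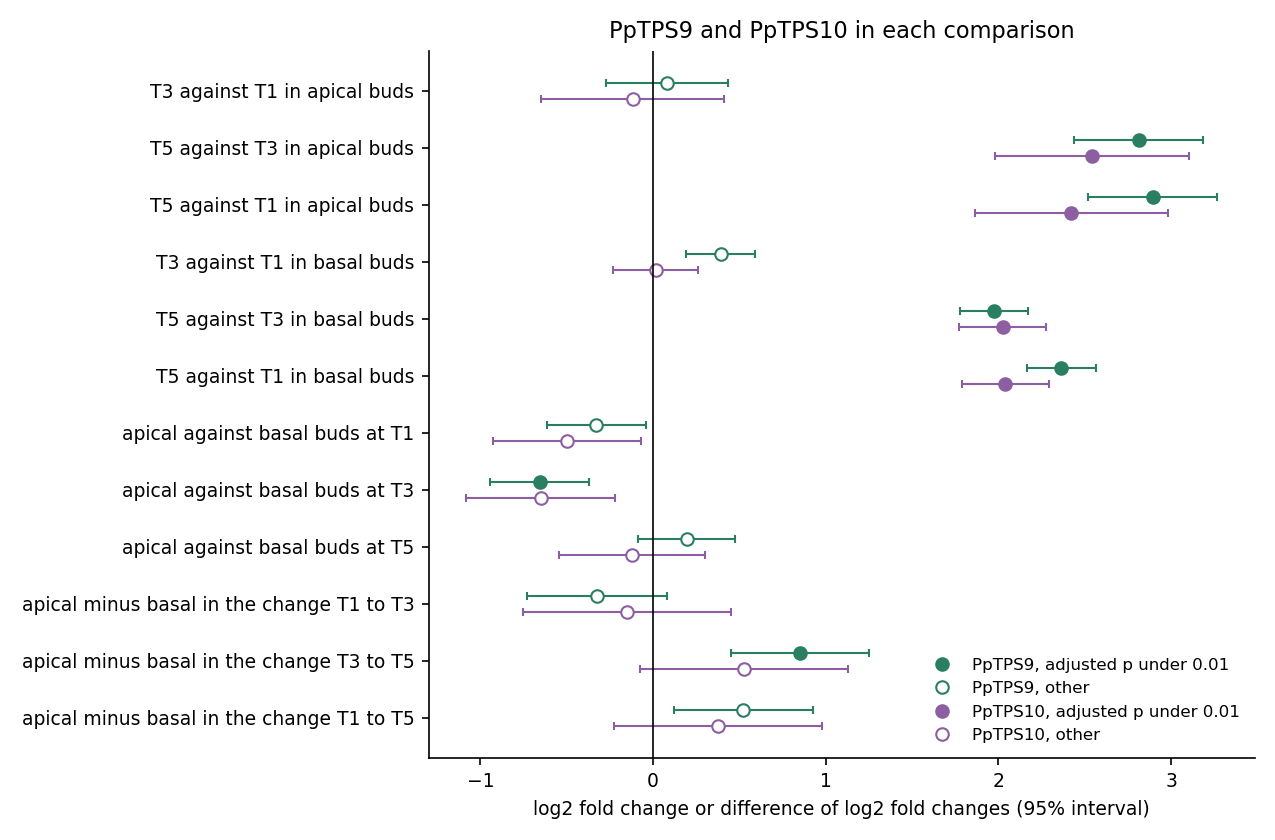
Log2 fold change of PpTPS9 (green) and PpTPS10 (purple) in each comparison, from edgeR's quasi-likelihood fit, with 95% intervals and filled points for an adjusted p under 0.01. The 4 comparisons of T5 with an earlier time lie between 1.97 and 2.89 for PpTPS9 and between 2.03 and 2.54 for PpTPS10, and the apical buds lie below the basal buds at T1 and T3.

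Set against basal buds of the same time, the values of apical buds lay below those of basal buds in both genes at T1 and T3 and overlapped with them at T5, and only PpTPS9 at T3 passed the test. The test treats apical and basal libraries as independent. With same-numbered libraries as a block, the edgeR adjusted p at T3 was 0.00209 for PpTPS9 and 0.0186 for PpTPS10. At T1 it was 0.0641 and 0.104. At T1, the apical values of PpTPS9 (830.4 to 1033) lay below the basal values (1097 to 1279), a log2 fold change of -0.33 with a standard error of 0.14 (edgeR adjusted p = 0.0927, 18 libraries in the fit). For PpTPS10 the apical values (3052 to 3677) also lay below the basal values (4139 to 5109), a log2 fold change of -0.50 with a standard error of 0.20 (adjusted p = 0.0864). Neither passed the threshold of 0.01, which 4.35% of the genes did in that direction, and 26.2% of the genes had apical values below all basal values. The spread that this fit shares among the groups included apical T3. Without replicate 1 of that group the edgeR adjusted p at T1 was 0.00543 for PpTPS10 and 0.0440 for PpTPS9. In a fit on the 6 libraries of T1 alone it was 0.000818 for PpTPS10 and 0.00676 for PpTPS9.

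At T3, PpTPS9 had 993 ± 133 normalized counts in apical buds, against 1565 ± 104 in basal buds, a 0.634-fold level (log2 fold change -0.66, standard error 0.14, edgeR adjusted p = 0.00138). This passed the threshold, as 12.3% of the genes did in that direction, and the highest apical value of 1127 lay below the lowest basal value of 1457, a separation found in 26.8% of the genes. The adjusted p of PpTPS9 remained under 0.01 in 18 of 18 fits that left out a library, with 0.00440 and a log2 fold change of -0.56 without replicate 1 of apical T3. In a fit on the 6 libraries of T3 alone it was 0.0171.

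PpTPS10 differed by -0.65 on the log2 scale between apical and basal buds at T3 (standard error 0.20, edgeR adjusted p = 0.0160), almost the value of PpTPS9 with a larger error, and did not pass the threshold. All apical values lay below all basal values for this gene too. Its difference depended on the apical replicates, being -0.39 (adjusted p = 0.0372) without replicate 1, the low library, and -0.85 (adjusted p = 0.00545) without replicate 3, the highest one. It passed with DESeq2 (adjusted p = 0.00657) and when scaled to the qPCR reference genes described below (-0.77, adjusted p = 0.00128).

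At T5 the positions overlapped in both genes. PpTPS9 had 5956 to 8379 normalized counts in apical and 5532 to 6934 in basal buds, with a log2 fold change of 0.19 (95% interval -0.088 to 0.47, adjusted p = 0.410 from edgeR). PpTPS10 had 15218 to 21064 in apical and 17689 to 21959 in basal buds, with a log2 fold change of -0.12 (95% interval -0.55 to 0.30, adjusted p = 0.766). Without replicate 1 of apical T3 the log2 fold changes stayed at 0.19 (edgeR adjusted p = 0.252) for PpTPS9 and -0.12 (edgeR adjusted p = 0.516) for PpTPS10. Without replicate 1 of apical T5 they were 0.30 (edgeR adjusted p = 0.162) and -0.017 (edgeR adjusted p = 0.970). At that time 3.26% of the genes differed between the positions in either direction. Both intervals hold differences of either sign, so that equal levels were not shown.

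Whether the rise itself differed between the positions was tested as the change in apical minus the change in basal buds. From T3 to T5 the difference for PpTPS9 was 0.85 on the log2 scale (standard error 0.19, edgeR adjusted p = 0.00803), which makes the rise 1.80 times as large in apical as in basal buds. In that direction 1.66% of the genes passed. The call stood close to its threshold, with 0.75 (adjusted p = 0.00877) without replicate 1 of apical T3. With same-numbered apical and basal libraries paired as a block, on the assumption that both came from the same shoots, the value was 0.85 with an edgeR adjusted p of 0.0121. Leaving out single libraries gave 0.70 to 0.95 with an adjusted p of 0.00460 to 0.0247, and the call was kept without apical T1 replicate 1, basal T1 replicate 3, apical T3 replicate 1 or 3, apical T5 replicate 1 or basal T5 replicate 3 and lost without any other.

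For PpTPS10 the difference from T3 to T5 was 0.53 (standard error 0.28, adjusted p = 0.204), and 0.27 (adjusted p = 0.330) without replicate 1 of apical T3. From T1 to T3 the differences were -0.33 (adjusted p = 0.353) for PpTPS9, or -0.23 without that library, and -0.15 (adjusted p = 0.778) for PpTPS10, or 0.11 without that library, where 0.0709% of the genes passed in either direction. From T1 to T5 they were 0.52 (adjusted p = 0.102) and 0.38 (adjusted p = 0.475), where 1.04% of the genes passed with a larger rise in apical buds. Without replicate 1 of apical T3 these T1 to T5 differences were 0.52 (edgeR adjusted p = 0.0396) and 0.38 (edgeR adjusted p = 0.146). These p-values came from edgeR. Apart from PpTPS9 between T3 and T5, no difference between the positions in the course over time passed for either gene.

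The ratio of PpTPS10 to PpTPS9 counts within a library needs no scaling between libraries and shows whether the 2 genes kept pace. In apical buds it was 3.68, 3.56 and 3.45 in the T1 libraries, 2.17, 3.54 and 3.42 in the T3 libraries, and 2.56, 2.51 and 2.64 in the T5 libraries. In basal buds it was 3.77, 4.22 and 3.99 in the T1 libraries, 3.53, 3.12 and 2.65 in the T3 libraries, and 3.20, 3.23 and 3.17 in the T5 libraries. The mean ratio was highest at T1 in both positions, and at T5 the libraries of a group lay very close together. In apical buds the ranges of T1 and T3 overlapped, and without replicate 1 the T3 mean was 3.48, against 3.56 at T1. As a ratio of counts it does not give the ratio of transcript numbers, and only its differences between libraries can be read.

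Relative to T1, the mean log2 ratio was lower at T3 and T5, and whether this passed depended on how the libraries were exchanged. From T1 to T3 it changed by -0.38 in basal buds and by -0.26 in apical buds, the latter with replicate 1 of apical T3 included. Over both positions, the difference of the mean log2 ratio was -0.40 for T5 minus T1, a 0.760-fold ratio (exact permutation test within positions, two-sided, p = 0.005, the smallest that its 400 assignments allow, adjusted p = 0.035 over 7 tests of the ratio). For T3 minus T1 it was -0.32 (exact permutation test, p = 0.01, adjusted p = 0.035), and for T5 minus T3 it was -0.078 (exact permutation test, p = 0.555, adjusted p = 0.6475). These tests treat the apical and basal libraries of the same shoots as independent. Same-numbered libraries of a time, assumed to be from the same shoots, were also exchanged together, an alternative chosen after seeing the data. Only 20 assignments then remain and the smallest possible p is 0.1. This p was the value for T5 minus T1 and for T3 minus T1 (exact permutation test, adjusted p = 0.301 each), so that neither passed. For T5 minus T3 it was 0.4. The T5 values lay below all T1 values of the same position. The difference of T5 minus T3 was -0.19 (exact permutation test, p = 0.16) without replicate 1 of apical T3, and -0.016, -0.028 and -0.029 without replicate 2 of apical T3, replicate 3 of apical T3 and replicate 1 of basal T3. Without replicate 3 of basal T3 it was -0.13.

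The difference of T3 minus T1 also depended on single T3 libraries. Without replicate 1 of apical T3 it was -0.20 (exact permutation test, adjusted p = 0.07), and without replicate 3 of basal T3 -0.26 (adjusted p = 0.0502). Without any one of the 6 T1 libraries it hardly moved, at -0.34 to -0.30 (adjusted p = 0.109 to 0.151). Each of these tests has fewer assignments than with all libraries, so that its p can rise without a change of the difference.

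The SD of the log2 ratio among replicates was 0.39 in apical T3 and 0.21 in basal T3, where counting error alone gives a standard error of 0.046 to 0.066 and of 0.038 to 0.045 per library. The apical value came from replicate 1, since the other 2 libraries of the group had an SD of 0.033. At T1 the SD was 0.046 in apical and 0.081 in basal buds, and at T5 it was 0.036 in apical and 0.014 in basal buds, close to the counting error of 0.018 to 0.025 per library. The counting error covers the sampling of reads only.

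Between the positions, the ratio was 2.57 ± 0.0641 in apical against 3.20 ± 0.0301 in basal buds at T5 (SD, n = 3), a difference of the mean log2 ratio of -0.32. All apical values lay below all basal values, but 3 against 3 libraries cannot give a two-sided p below 0.1, which was the value here (exact permutation test, adjusted p = 0.14). At T1 the ratios were 3.56 ± 0.114 in apical against 4.0 ± 0.224 in basal buds (SD, n = 3), a log2 difference of -0.17 (exact permutation test, p = 0.1, adjusted p = 0.14), again without overlap. At T3 they were 3.04 ± 0.756 against 3.10 ± 0.443 (-0.049, exact permutation test, p = 0.9), and the difference was 0.18 without replicate 1 of apical T3 and 0.050 without replicate 1 of basal T3. Tested over the 3 times together, the difference of -0.18 did not pass (exact permutation test within times, p = 0.0585, adjusted p = 0.1365), and it was -0.10 (exact permutation test, p = 0.201) without replicate 1 of apical T3.

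**Figure D3:**
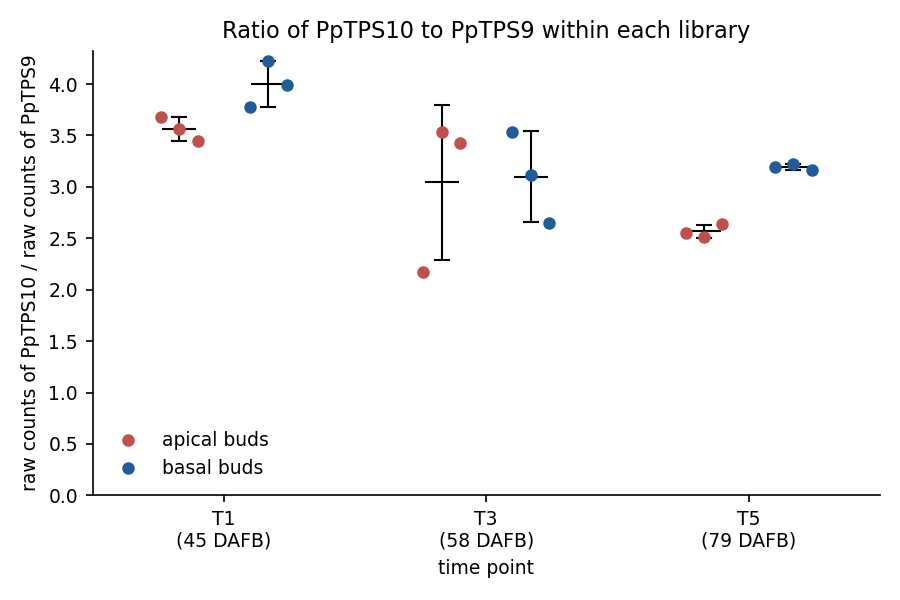
Ratio of the raw counts of PpTPS10 to those of PpTPS9 in each library at T1, T3 and T5, with apical buds left of basal buds and lines for the mean ± SD of 3 replicates. The ratio is below 2.7 in all apical T5 libraries and between 3.17 and 3.23 in the basal ones, and at T3 it runs from 2.17 to 3.54 in apical buds.

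The 2 genes also moved together from library to library within a group. The deviations of their log2 normalized counts from the group means had a Pearson's r of 0.774 over the 18 libraries (exact permutation within groups, two-sided, p = 0.000664) and a Spearman's rho of 0.820 (p = 0.000986 by the same permutation). Without the libraries with the most extreme deviation of PpTPS9, replicates 1 and 2 of apical T5, r was 0.759 (exact permutation, p = 0.00399), and leaving out each library in turn gave 0.725 to 0.828, with the highest value without replicate 1 of apical T3. Library size and scaling enter both genes alike, and their part in this relation was not tested beyond the other scalings, which gave an r of 0.761 with library size only and 0.768 with median-of-ratios factors. No other pair of genes was put through this test, so that the relation is not shown to be particular to these 2 genes. The libraries with the largest deviations were those of apical T3 for PpTPS10 and apical T5 for PpTPS9.

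**Figure D4:**
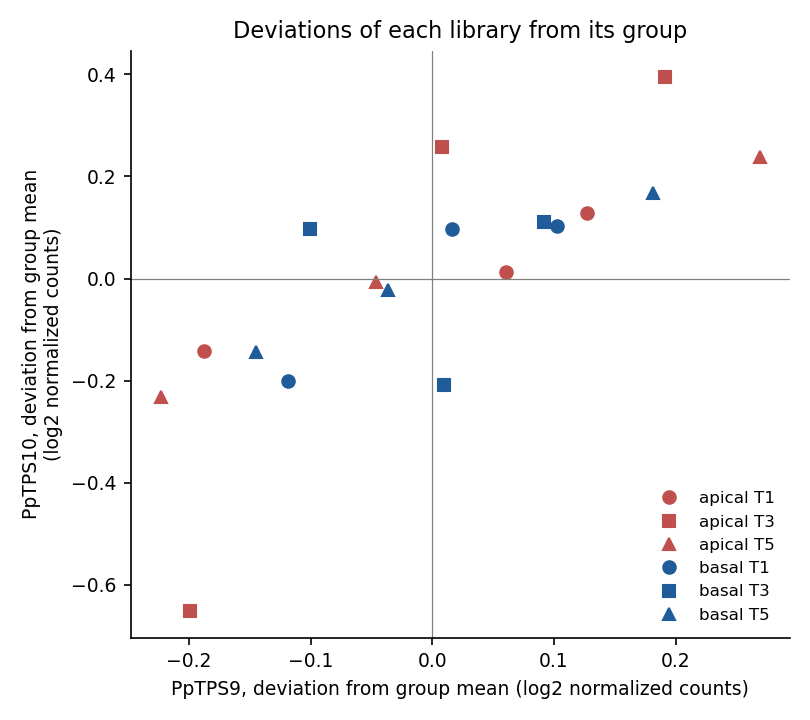
Deviation of each library from the mean of its group on the log2 scale, PpTPS9 across and PpTPS10 up, with 1 point for each of the 18 libraries (red apical, blue basal; circles T1, squares T3, triangles T5). Most points rise together (r = 0.774), and the lowest square is replicate 1 of apical T3.

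Across the 18 libraries as a whole, the log2 CPM of the 2 genes had a Pearson's r of 0.980. This describes mostly the step to T5, which many genes shared, since r was over 0.9 with PpTPS9 for 1290 and with PpTPS10 for 1165 of 19753 other genes. By r, PpTPS10 ranked 48 among these for PpTPS9, and PpTPS9 ranked 38 for PpTPS10. The gene most like PpTPS9 was PRUPE_2G171000 (r = 0.993), with 2369 and 2376 normalized counts at T1 and T3 and 4755 at T5 in apical buds, and with 2439, 2737 and 4323 in basal buds. The gene most like PpTPS10 was PRUPE_7G252300 (r = 0.994), with 1988, 1903 and 3752 in apical and 2183, 2352 and 3861 in basal buds at T1, T3 and T5. These 2 genes carry no name here, and their rise at T5 was smaller than that of the TPS genes.

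Both TPS genes were also measured by qPCR in the study, relative to TEF2 (PRUPE_4G138900), a translation elongation factor gene, and UBQ10 (PRUPE_4G204900), a polyubiquitin gene whose reads may be shared with other ubiquitin genes. By qPCR the study found both TPS genes level between T1 and T3 and higher at T5 in apical and basal buds. It reported a very good correlation of these qPCR values with RNA-Seq. In the libraries the reference genes TEF2 and UBQ10 rose at T5 too. TEF2 was 4.62-fold higher at T5 than at T3 in apical buds (adjusted p = 1.04e-05 from edgeR) and 3.92-fold higher in basal buds (adjusted p = 2.73e-08). UBQ10 was 1.51-fold higher in apical buds (adjusted p = 0.00532) and 1.58-fold higher in basal buds (adjusted p = 8.24e-05). The apical values include replicate 1 of apical T3, where TEF2 had 584.8 normalized counts, against 879.6 and 841.7 in replicates 2 and 3. The rise of TEF2 was thus about as large as that of the TPS genes in basal buds.

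Taken relative to TEF2 within each library, PpTPS9 had ratios of 1.15 ± 0.15, 1.31 ± 0.17 and 1.97 ± 0.16 in apical buds at T1, T3 and T5, and of 1.57 ± 0.23, 2.51 ± 0.22 and 2.50 ± 0.21 in basal buds (SD, n = 3). For PpTPS10 the ratios were 4.08 ± 0.44, 3.92 ± 0.70 and 5.05 ± 0.30 in apical buds, and 6.27 ± 0.94, 7.84 ± 1.69 and 7.99 ± 0.60 in basal buds. On this scale the basal values at T3 and T5 overlapped in both genes, and the apical values lay below the basal ones at T5, unlike in the normalized counts. Relative to UBQ10 the step at T5 stayed, with 0.179 for PpTPS9 and 0.459 for PpTPS10 at T5 in apical buds, against 0.0384 and 0.117 at T3, and with 0.137 and 0.437 at T5 in basal buds, against 0.0549 and 0.170 at T3.

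**Figure D5:**
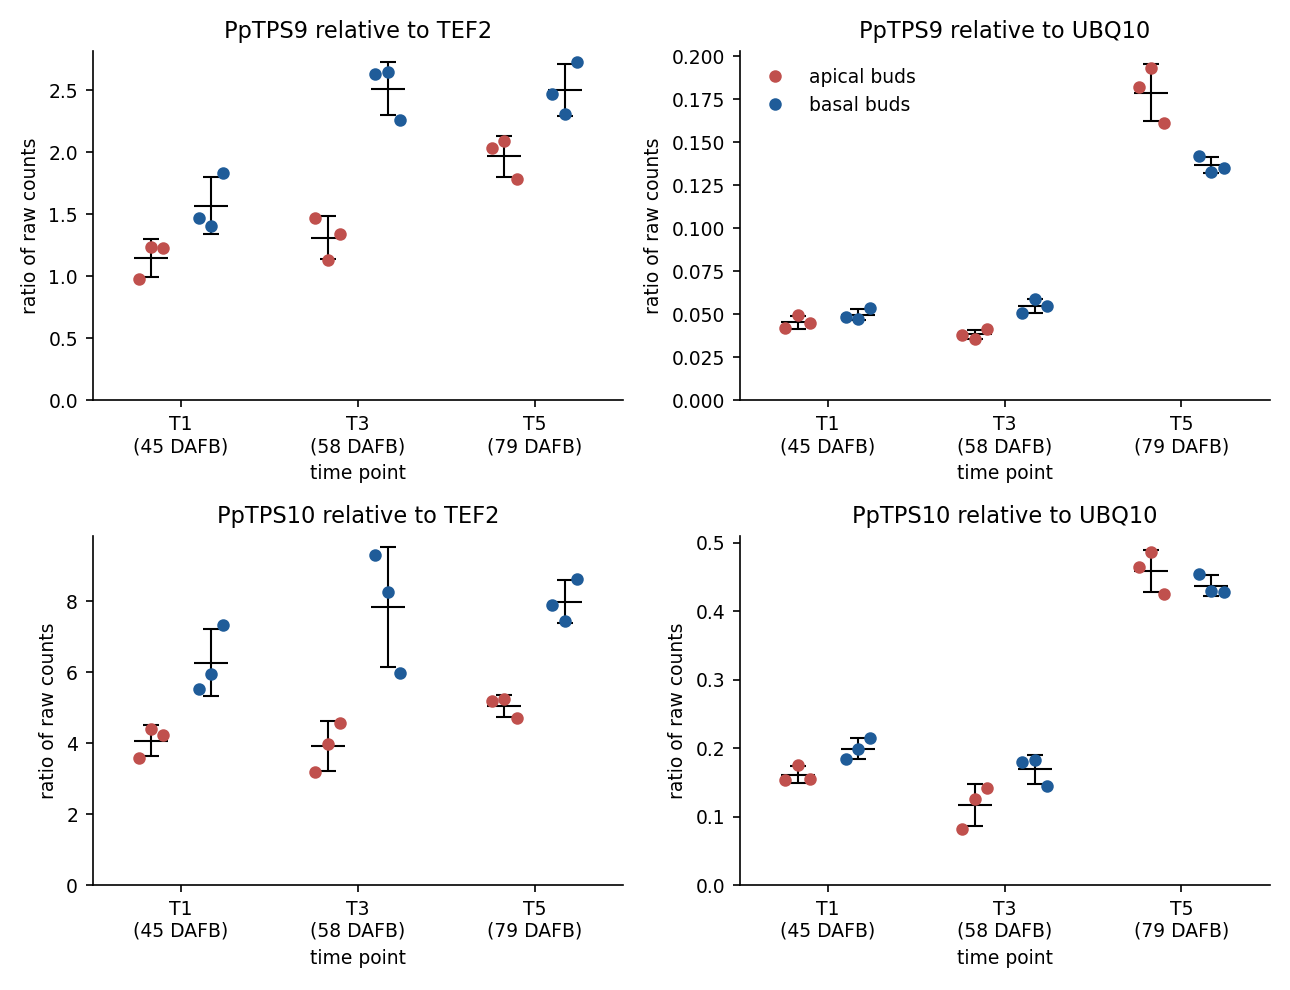
Ratio of the raw counts of PpTPS9 (top) and PpTPS10 (bottom) to those of TEF2 (left) and UBQ10 (right) in each library, with apical buds left of basal buds and lines for the mean ± SD of 3 replicates. Relative to TEF2, PpTPS9 in basal buds averages 2.51 at T3 and 2.50 at T5, whereas relative to UBQ10 both genes are higher in all T5 libraries than at T1 and T3.

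With all libraries scaled to the geometric mean of both reference genes, the rise from T3 to T5 was 2.65-fold for PpTPS9 and 2.25-fold for PpTPS10 in apical buds, and 1.58-fold and 1.62-fold in basal buds. Each still passed an adjusted p of 0.01 in edgeR, with the highest at 4.23e-05. The same scaling moved the median log2 fold change of all genes to -1.40 in apical and -1.33 in basal buds. Relative to that median, the changes were 2.81 and 2.57 in apical buds and 1.99 and 2.03 in basal buds for PpTPS9 and PpTPS10. A scaling moves all genes of a library by 1 factor. These values must therefore lie close to those under TMM, and they do not test the rise. For T5 against T1 the scaled rises were 2.60-fold for PpTPS9 and 1.88-fold for PpTPS10 in apical buds, and 2.09-fold and 1.67-fold in basal buds, all with an adjusted p under 0.01.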

How the data were processed

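Total RNA of buds was sequenced from stranded mRNA libraries on an Illumina NextSeq sequencer. The authors checked the reads with FastQC, aligned them with Hisat2 to the peach genome v2.0.a1 and counted them with HTSeq on public gene models. The deposited values are raw counts per gene and library. The counting mode and the strand setting are not given in the sources used here, so reads shared with overlapping or closely similar genes, other TPS genes included, may have been split or dropped. Libraries were grouped by their titles, in which UP was read as apical and DOWN as basal.

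The genes and tests were chosen with earlier results of these data known. Counts were filtered and TMM-normalized with edgeR 4.0.16 (R 4.3.3), which kept 19636 genes in apical buds, 19304 in basal buds and 19754 in all libraries. Time contrasts were fitted on the 9 libraries of a position, and contrasts of position and of change on all 18. The quasi-likelihood p-values were adjusted by Benjamini-Hochberg over all genes tested, with a threshold of 0.01, and standard errors are the log2 fold change over the square root of F. With 3 replicates, each pooling several shoots, p-values measure the spread between these samples. Each time was a single sampling occasion in the same orchard and season, so that time and occasion cannot be told apart. Log2 ratios and within-group deviations were tested by exact permutation (threshold 0.05). The genes named were both members, the 2 qPCR reference genes and, for each member, the gene with the highest r of log2 CPM (prior count 2). Alternatives were DESeq2 1.42.0, 3 other scalings, no filter, a test against a 2-fold change, ratios of summed counts, a replicate block, fewer or more libraries in the fit, and each library left out. An exchange of same-numbered libraries of a time as a set was added after seeing the data. The steps were tested on simulated counts.

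By the methods, equal replicate numbers at a time come from the same shoots, and nothing ties the numbers across times. The deviations of same-numbered apical and basal libraries correlated across genes with an r of -0.067 to 0.18 (9 pairs, median 0.021). Apical and basal libraries of the same time with different numbers had -0.20 to 0.18 (18 pairs, median -0.010). These ranges overlap, so that the values do not show which libraries share shoots. The peach gene table provided held 0 of these identifiers, so that other trehalose genes were not analysed here and no sequence is shown.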

Additional observations from a re-analysis of the deposited data

Results flagged for a closer look

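The change of PpTPS9 between T3 and T5 differed between the positions, with a rise larger by 0.85 on the log2 scale in apical than in basal buds (standard error 0.19, edgeR adjusted p = 0.00803). The apical value lay below the basal value at T3 in all libraries and the ranges overlapped at T5. Without replicate 1 of apical T3, whose raw counts stood apart, the difference was 0.75 (edgeR adjusted p = 0.00877). With same-numbered libraries of a time as a block the adjusted p was 0.0121, and leaving out single libraries gave 0.00460 to 0.0247, under the threshold of 0.01 in 6 of 18 fits, so that the call was not stable.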

How the results depend on the processing

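The rises of both genes from T3 and T1 to T5 kept their direction and an adjusted p under 0.01 from edgeR or DESeq2 under every alternative run. With DESeq2, PpTPS9 at T3 against T1 in basal buds (0.39, adjusted p = 0.00193) and PpTPS10 in apical against basal buds at T3 (-0.65, adjusted p = 0.00657) passed. PpTPS9 in that step passed also with no filter (0.39, adjusted p = 0.00924) and with the replicate number as a block across times (0.39, adjusted p = 0.00513), although nothing in the methods ties the numbers across times. With library size only, PpTPS10 had -0.037 at T3 against T1 in basal and PpTPS9 -0.013 in apical buds, both turned in direction, and PpTPS10 passed at T3 between positions (-0.70, adjusted p = 0.00917). Library size moved the median of all genes by -0.19 to -0.035 in the comparisons with T5. Scaling to TEF2 and UBQ10 turned PpTPS9 at T3 against T1 in apical buds to -0.025, made PpTPS10 pass at T3 between positions (-0.77, adjusted p = 0.00128) and PpTPS9 miss in the difference of the change T3 to T5 (0.75, adjusted p = 0.0185). Against a 2-fold change, PpTPS9 passed neither at T3 between positions (-0.66) nor in that difference (0.85). An estimate within 1 of no change on the log2 scale cannot pass that test, so that these misses were fixed in advance. In the fits on the 6 libraries of a time, PpTPS9 (-0.35) and PpTPS10 (-0.52) passed at T1, and PpTPS9 (-0.65, adjusted p = 0.0171) missed at T3. With same-numbered libraries as a replicate block, the difference of PpTPS9 in the change T3 to T5 was 0.85 (adjusted p = 0.0121). The log2 ratio at T3 minus T1 was -0.32 and at T5 minus T1 -0.40 under every block. With same-numbered libraries of a time exchanged as a set, added after seeing the data, the adjusted p was 0.301 for both. With same-numbered libraries paired across times, a pairing with no basis in the methods, it was 0.109, where 6 pairs cannot give a p below 0.03125. These blocks changed no other call.

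Leaving out each library in turn gave -0.020 to 0.17 for PpTPS9 and -0.31 to 0.14 for PpTPS10 at T3 against T1 in apical buds, 0.33 to 0.44 and -0.077 to 0.11 in basal buds, and -0.63 to -0.47 and -0.85 to -0.39 for PpTPS10 between positions at T1 and T3. The differences of the change were -0.35 to 0.11 for PpTPS10 from T1 to T3 and 0.70 to 0.95 for PpTPS9 from T3 to T5. The log2 ratio between positions at T3 was -0.17 to 0.18, at T3 minus T1 -0.38 to -0.20, at T5 minus T3 -0.19 to -0.016, and between positions over the 3 times -0.22 to -0.10. Of the values under the alternatives other than leaving out single libraries, 185 counted as unchanged, 8 newly passed, 9 no longer passed and 3 turned. Unchanged means the same direction and side of the threshold. Ratios of summed counts have no p, and counted as unchanged if they moved by less than the pooled SD of the log2 ratio. The fits on the libraries of a single time are included. These counts include the test against a 2-fold change, whose outcome was fixed for changes smaller than 2-fold.

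Depth was not the limit for either gene, with at least 609 raw counts in every library. The 3 replicates per group, the low apical T3 library and the lack of transcript lengths limit what these values show, and a ratio test between positions at 1 time had a smallest p of 0.1.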
